A study of Mus musculus with 12 samples.

Results

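Matrix metalloproteinases are zinc-dependent enzymes that cut collagens, laminins, fibronectin and other proteins outside the cell, and the tissue inhibitors of metalloproteinases (TIMPs) bind and block them. The genes described here are 7 metalloproteinases (Mmp2, Mmp3, Mmp9, Mmp10, Mmp13, Mmp14 and Mmp19) and 3 inhibitors (Timp1, Timp2 and Timp3). They were taken by symbol from a count table of 55487 mouse genes, with earlier results of these data known. All 10 were found in the table, and 7 of them had enough reads to be tested, among 12897 genes tested in all. Mmp3, Mmp10 and Mmp13 did not, and only their reads are given.

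Most metalloproteinases are made as inactive precursors and are activated by other proteases, such as plasmin or furin. The membrane-bound enzyme MMP14 activates the MMP2 precursor at the cell surface, and TIMP2 takes part by holding that precursor to MMP14. TIMP3 differs from the other inhibitors in binding to the matrix and in also blocking several ADAM and ADAMTS proteases. Transforming growth factor β (TGFβ) is a cytokine widely used to drive fibrotic change in kidney epithelium, where the balance of these enzymes and inhibitors bears on how much matrix is kept or removed.

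The study measured polyadenylated RNA in tubular epithelial cells (im_TEC) of mouse kidney, immortalised with an SV40 large T antigen whose activity is kept by permissive culture and lowered before an experiment. There were 4 groups with 3 libraries each: mock-transduced cells, mock-transduced cells with TGFβ, cells labelled Nnmt-OE, and cells labelled Nnmt-OE with TGFβ. The dose of TGFβ was 10 ng/mL, left on for 48 h, and Nnmt encodes nicotinamide N-methyltransferase, which methylates nicotinamide. All groups went through puromycin selection, culture at 33 °C, where the medium held 10 ng/mL interferon γ, and then 7 days at 37 °C in its absence, and all were kept in medium with 20 ng/mL epidermal growth factor and 36 ng/mL hydrocortisone. One cell line was used, the genotype label of the construct groups reads Nmt-OE where the titles read Nnmt-OE, and whether replicates came from different cultures is not in the labels, so the p-values rest on a spread between libraries that may be only technical.

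Libraries held 4733846 to 7247413 reads in genes. A level is given below in CPM, the count scaled to the library size so that totals are alike, and 3 reads, taken as the lower limit of detection, correspond to 0.414 to 0.636 CPM in a library. The method reads about 1 tag near the 3' end of each transcript, so levels were not divided by transcript length, and levels of different genes are compared on the scale of tags. Mock replicate 1, mock with TGFβ replicate 3 and labelled Nnmt-OE with TGFβ replicate 3 stood apart from the rest on the leading principal components. Nnmt itself was at 20.3 ± 3.84 CPM (SD, n = 3) in mock, 25.3 ± 2.88 in labelled Nnmt-OE, 30.3 ± 2.77 in mock with TGFβ and 27.6 ± 5.80 in labelled Nnmt-OE with TGFβ, and neither construct contrast was called (edgeR adjusted p = 0.897 and 0.998). Whether the construct carries the 3' end that these tags read is not given in the sources used here, so this level does not check the label. Of 12 tubular markers, Epcam and Cdh1 were at 0 in all 12 libraries and Slc34a1 had 1 read, while Aqp1 (854 CPM), Pax2 (298) and Pax8 (243) were high. Among 9 macrophage and neutrophil markers, which cover cells known to make Mmp9, Adgre1, Itgam, S100a9 and Ly6g were at 0. Ptprc, Lyz2 and S100a8 had 2, 1 and 4 reads over all libraries, whereas Csf1r was at 71.7 CPM and Cd68 at 7.64 CPM. Of 5 endothelial markers 4 were at 0. The labels' library codes run in blocks by group, so handling and group cannot be told apart.

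The 250 bases before the RefSeq transcript start were available for 7 of the 10 genes (GRCm38.p6). The windows of Mmp3 at chr9:7445572-7445821 (plus strand), Mmp10 at chr9:7502092-7502341 (plus strand) and Mmp13 at chr9:7272264-7272513 (plus strand) are shown because these 3 genes gave few reads or none. Those of Timp1 at chrX:20869916-20870165 (plus strand) and Timp3 at chr10:86300162-86300411 (plus strand) are shown because these genes rose with TGFβ. All are written 5′ to 3′ in the direction of the gene, with capitals marking letters of 3 elements. TGANTCA is the AP-1 element, to which Jun and Fos proteins bind. TATAAA is the TATA box, which places the transcription start. GGGCGG is the GC box, to which Sp1 and related factors bind. In Timp1 and Timp3 the GC box lies on the opposite strand and is seen as its reverse complement, CCGCCC.
Mmp3: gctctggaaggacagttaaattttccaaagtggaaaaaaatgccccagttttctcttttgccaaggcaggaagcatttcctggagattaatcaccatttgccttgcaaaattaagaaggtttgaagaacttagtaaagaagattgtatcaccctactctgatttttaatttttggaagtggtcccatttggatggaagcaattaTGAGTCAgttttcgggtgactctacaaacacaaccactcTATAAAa
Mmp10: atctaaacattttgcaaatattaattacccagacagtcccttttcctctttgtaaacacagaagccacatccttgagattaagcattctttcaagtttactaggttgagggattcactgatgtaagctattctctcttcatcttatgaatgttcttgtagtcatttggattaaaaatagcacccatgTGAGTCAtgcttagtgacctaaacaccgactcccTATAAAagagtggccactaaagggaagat
Mmp13: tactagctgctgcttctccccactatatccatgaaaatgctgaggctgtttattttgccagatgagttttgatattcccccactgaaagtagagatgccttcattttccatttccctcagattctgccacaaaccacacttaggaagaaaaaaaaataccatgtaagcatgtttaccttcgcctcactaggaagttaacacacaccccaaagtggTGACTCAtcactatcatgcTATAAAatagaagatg
Timp1: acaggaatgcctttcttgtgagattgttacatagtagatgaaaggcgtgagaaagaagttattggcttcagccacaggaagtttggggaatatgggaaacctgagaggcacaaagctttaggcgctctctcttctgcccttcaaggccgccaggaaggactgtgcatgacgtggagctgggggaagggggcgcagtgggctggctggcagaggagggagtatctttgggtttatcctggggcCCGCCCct
Timp3: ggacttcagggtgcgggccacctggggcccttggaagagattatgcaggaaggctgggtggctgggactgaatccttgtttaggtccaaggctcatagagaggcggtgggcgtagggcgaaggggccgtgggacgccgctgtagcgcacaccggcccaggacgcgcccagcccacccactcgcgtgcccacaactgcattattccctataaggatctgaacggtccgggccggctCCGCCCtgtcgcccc

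The AP-1 letters occurred in all 3 windows of Mmp3, Mmp10 and Mmp13, at 46 to 40, 63 to 57 and 35 to 29 bases before the start, and in none of the windows of Mmp14, Timp1, Timp2 and Timp3. TATA box letters were in the same 3 windows only, at 7 to 2 bases before the start in Mmp3, 29 to 24 in Mmp10 and 16 to 11 in Mmp13. GC box letters were found in the windows of Mmp14, Timp1, Timp2 and Timp3 and in none of the other 3. Among 32851 RefSeq windows of this length, searched on both strands, 6.75% held the AP-1 letters, 12.4% the TATA box and 32.7% the GC box. Letters of an ETS site (AGGAAG) were in 5 of the 7 windows and in 29.5% of all, and a SMAD box (CAGAC) was in 1 of the 7, that of Mmp10, and in 42.2% of all. G and C made up 37.6, 37.2 and 40.4% of the Mmp3, Mmp10 and Mmp13 windows, against 55.2, 54.4, 68 and 65.6% for Mmp14, Timp1, Timp2 and Timp3 and a median of 52.4% over all windows. No matches of different motifs overlapped in these 7 windows, and a match describes the sequence only.

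**Figure D1:**
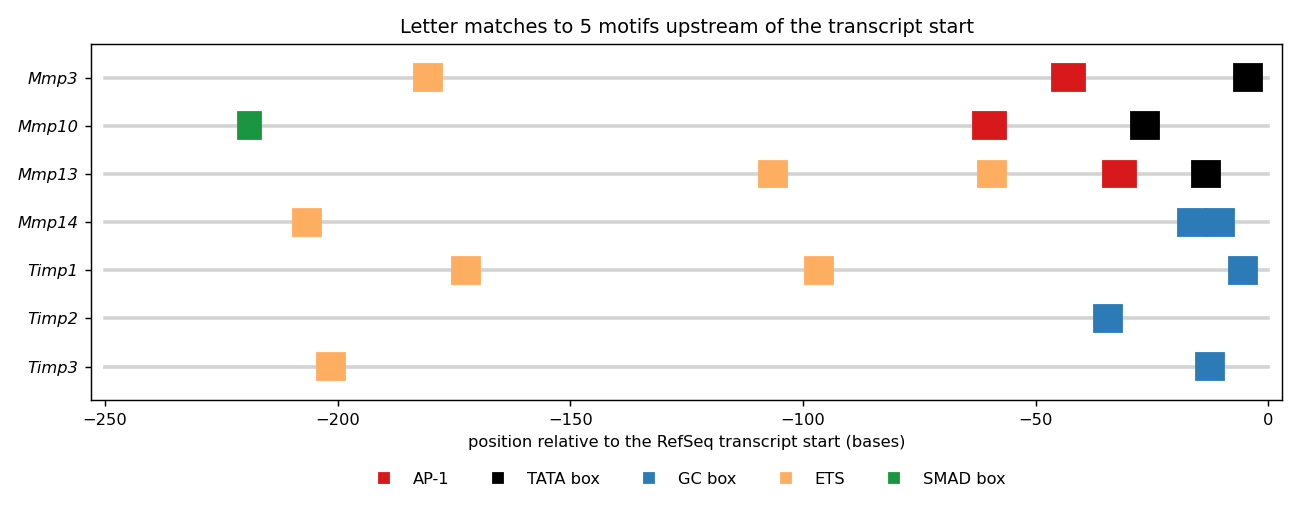
Positions of letter matches to 5 motifs (coloured squares) in the 250 bases before the RefSeq transcript start of 7 genes, with the distance from the start in bases on the x axis. AP-1 and TATA box matches lie within 63 bases of the start in Mmp3, Mmp10 and Mmp13, and GC box matches within 37 bases in Mmp14, Timp1, Timp2 and Timp3.

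Mmp13, a collagenase, and Mmp3, the enzyme stromelysin-1, had 0 reads in all 12 libraries. Counted over all libraries together, that allows up to 0.0422 CPM for each. Mmp10, or stromelysin-2, had 9 reads in total, spread over 5 libraries with at most 3 in one. These were 3 reads each in mock with TGFβ, labelled Nnmt-OE and labelled Nnmt-OE with TGFβ, and 0 in mock, a spread too thin for a comparison at this depth. In the RefSeq gene order these 3 genes belong to a run of 10 metalloproteinase genes on mouse chromosome 9, ordered Mmp13, Mmp12, Mmp1b, Mmp3, Mmp1a, Mmp10, Mmp8, Mmp27, Mmp20 and Mmp7. Of those 10, 7 were at 0 everywhere. The other 3 were Mmp10, Mmp8 (31 reads) and Mmp27 (1 read), so that the run gave 41 of 71112817 reads in genes.

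Tags of the system came almost wholly from 4 genes. Timp2 had a mean of 1772 CPM over the 12 libraries, above 99.8% of the genes tested, and Timp3 had 520 CPM, above 98.5%. Next came Mmp14 at 139 CPM and Mmp2 at 114 CPM, above 88.8 and 85.7% of tested genes. Timp1 at 29.2 CPM lay near the middle (53.4%), and Mmp19 at 3.09 CPM and Mmp9 at 2.21 CPM lay near the bottom (12.6 and 8.44%). Mmp14 and Mmp2 are neighbours in this order whose ranges overlapped, at 112 to 159 and 95.7 to 137 CPM, and so are Mmp19 (0.914 to 6.79 CPM) and Mmp9 (0 to 5.12 CPM). The other neighbours from Timp2 down to Mmp19 did not overlap over the 12 libraries.

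The plot of levels by group shows every gene in every library. Summed over the 3 inhibitors, there were 9.06 ± 1.49 tags for each metalloproteinase tag (SD, n = 12), from 7.53 to 12.0 in single libraries. Timp2 gave 76.1 ± 3.94% of inhibitor tags, Timp3 22.6 ± 3.7% and Timp1 1.28 ± 0.347%. Among metalloproteinase tags, 53.7 ± 3.01% were from Mmp14 and 44.2 ± 3.23% from Mmp2.

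**Figure D2:**
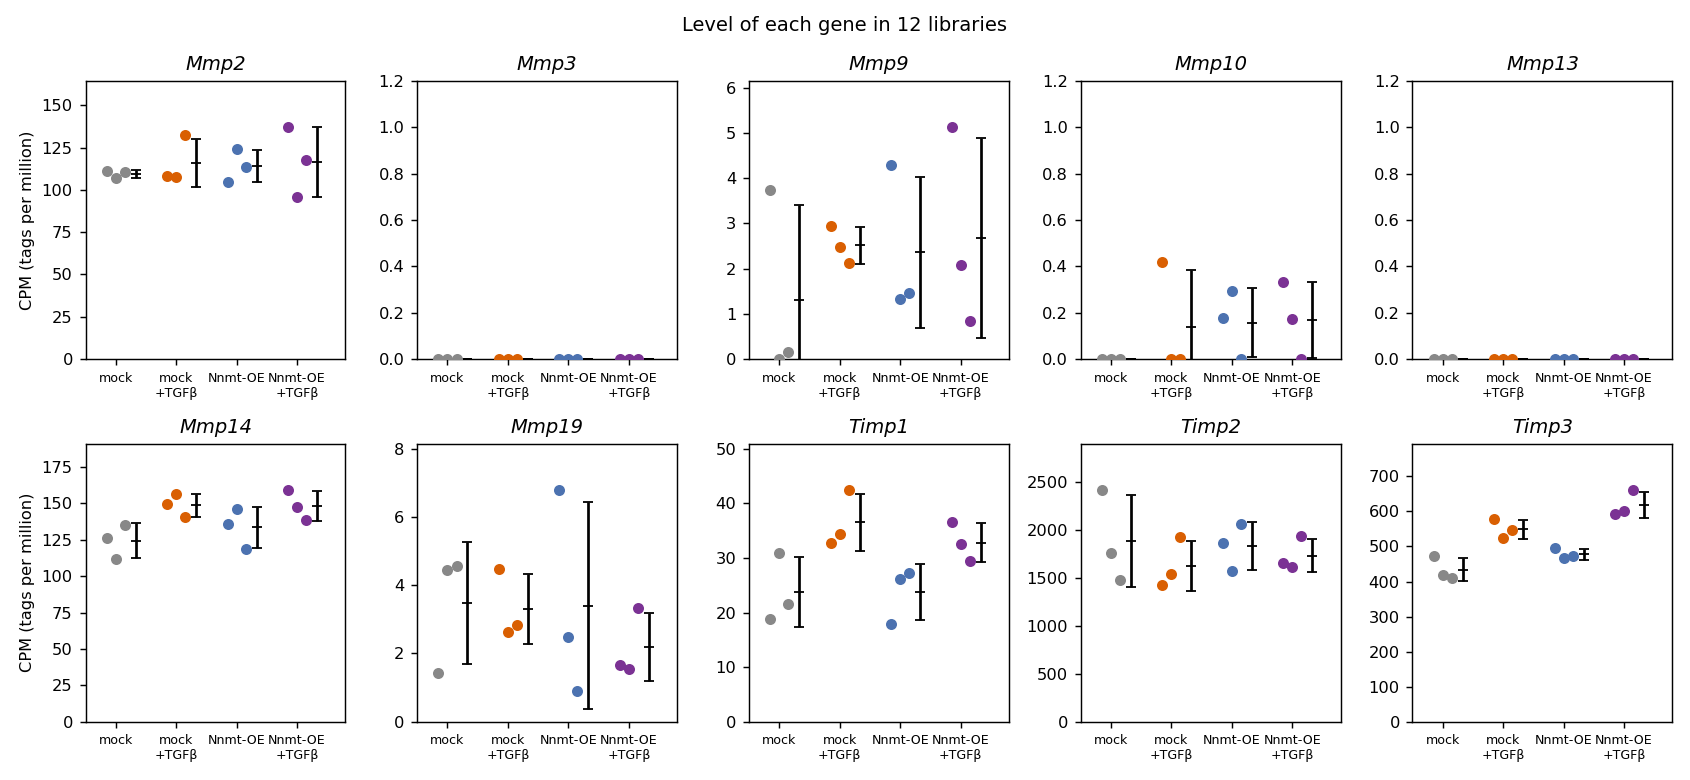
Level in CPM (y axis, linear, from 0, scaled to each gene) of 10 genes in the 12 libraries, 1 point per library, by group, with the mean and SD of 3 libraries beside the points. Timp3 sits at 523 to 661 CPM in the 6 TGFβ libraries and at 411 to 496 CPM in the 6 others, and Mmp3 and Mmp13 are at 0 throughout.

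The first question of the design was what TGFβ did in cells of each construct. With TGFβ, 1 of the 7 tested genes rose in mock cells and 1 rose in labelled Nnmt-OE cells, Timp3 in both, and 0 fell. Over all genes tested, 1.43% were called in mock cells and 1.4% in labelled Nnmt-OE cells, in either direction. When the difference was averaged over both constructs, which compares 6 libraries with 6, Timp3 and Timp1 rose and 0 of the 7 fell, against 5.08% of all genes called. The averaged contrast uses the same libraries as the single ones and is no further evidence for them. The median log2 difference of the 7 genes was 0.26 in mock cells, 0.15 in labelled Nnmt-OE cells and 0.20 averaged, beside medians over all genes of -0.0019, -0.0016 and -0.0046.

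Timp3, the matrix-bound inhibitor, had 472, 418 and 411 CPM in mock replicates 1 to 3 and 578, 523 and 546 CPM in mock with TGFβ. In labelled Nnmt-OE cells the values were 496, 466 and 473 CPM without and 592, 601 and 661 CPM with TGFβ. Each treated library was above each untreated one, over both constructs. Groups separated in this way for 3 of the 7 genes in mock cells (Mmp14, Timp1 and Timp3), 2 in labelled Nnmt-OE cells (Timp1 and Timp3) and 1 over both constructs (Timp3). In either direction, they did so for 16.4% of tested genes in mock cells, 17.6% in labelled Nnmt-OE cells and 3.11% over the 6 and 6 libraries. The rise was 0.34 ± 0.0834 (log2 ± SE) in mock cells (edgeR adjusted p = 0.0227) and 0.37 ± 0.0833 in labelled Nnmt-OE cells (edgeR adjusted p = 0.0105). Averaged, it was 1.28-fold (95% interval 1.18 to 1.39, edgeR adjusted p = 6.71e-05).

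Whether the single rises of Timp3 were called depended on which libraries were kept, while their sizes changed little. Over 21 alternative fits the log2 difference in mock cells ran from 0.302 to 0.412, and 17 fits called it. In labelled Nnmt-OE cells it ran from 0.321 to 0.401, and 18 of 21 fits called it. In mock cells the call was lost without mock replicate 2 (edgeR adjusted p = 0.107), mock replicate 3 (0.0911) or mock with TGFβ replicate 1 (0.149), and in a fit of these 2 groups alone (0.125). In labelled Nnmt-OE cells it was lost without labelled Nnmt-OE replicate 2 (0.0516) or 3 (0.0695) or labelled Nnmt-OE with TGFβ replicate 3 (0.116). The averaged rise was called in each of 20 alternative fits, with a highest adjusted p of 0.000897. Summed over 12 tubular markers, mostly Aqp1, Pax2 and Pax8, with Epcam and Cdh1 at 0, the level was 1500 to 1695 CPM in TGFβ libraries. In untreated ones it was 1701 to 2061 CPM, and the part of this shift in the Timp3 and Timp1 results was not tested. Summed over 6 fibroblast and pericyte markers, mostly Col1a1, with Lum and Thy1 at 0, it was 3.20 to 5.52 CPM in mock and 6.89 to 10.9 CPM in mock with TGFβ. In labelled Nnmt-OE cells that sum was 1.47 to 8.04 CPM without and 9.42 to 14.5 CPM with TGFβ, and its part in these results was not tested either. Col1a1 is also counted among the matrix proteins below, so its rise there and the rise of this sum are not separate observations. In bulk RNA, fewer cells of a kind and less RNA per cell cannot be told apart. Syn3, whose gene overlaps Timp3 on the opposite strand, had 74 reads in all against 36916 for Timp3.

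Timp1, a secreted inhibitor known as a marker of tissue injury, had 18.8, 31.0 and 21.6 CPM in mock replicates 1 to 3 and 32.8, 34.3 and 42.4 CPM in mock with TGFβ. In labelled Nnmt-OE cells it had 17.9, 26.1 and 27.3 CPM without and 36.5, 32.5 and 29.4 CPM with TGFβ. Treated libraries were above untreated ones within each construct. Over both, mock replicate 2 lay above labelled Nnmt-OE with TGFβ replicate 3. The single differences were 0.62 ± 0.212 (log2 ± SE, edgeR adjusted p = 0.158) and 0.47 ± 0.213 (0.386), and neither passed the test. Averaged, Timp1 rose 1.46-fold (95% interval 1.18 to 1.80, edgeR adjusted p = 0.0226).

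That averaged call for Timp1 was lost without mock replicate 1 (edgeR adjusted p = 0.0576), mock replicate 3 (0.0558), mock with TGFβ replicate 3 (0.0615), labelled Nnmt-OE replicate 1 (0.0884) or labelled Nnmt-OE with TGFβ replicate 1 (0.0728). It was also lost in the fit without the 3 libraries that stood apart (0.0929). Over 20 alternative fits the adjusted p ran from 0.00768 to 0.0929, and 14 of them called it, with log2 differences from 0.45 to 0.66. Syn1, which overlaps Timp1 on the opposite strand, had 0 reads.

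Timp2, the inhibitor that also helps activate MMP2, was not called. Its libraries had 2419, 1764 and 1485 CPM in mock, 1425, 1540 and 1924 CPM in mock with TGFβ, 1869, 1573 and 2062 CPM in labelled Nnmt-OE, and 1654, 1617 and 1934 CPM in labelled Nnmt-OE with TGFβ. All 4 groups overlapped, and mock replicate 1 was the highest of the 12 libraries. The averaged difference with TGFβ was -0.15 ± 0.135 (log2 ± SE, edgeR adjusted p = 0.674), with a 95% interval of 0.731- to 1.12-fold. Timp3 made up 25.02 ± 3.34% of inhibitor tags in mock with TGFβ and 25.9 ± 0.765% in labelled Nnmt-OE with TGFβ (SD, n = 3). Without TGFβ the shares were 18.9 ± 2.61% and 20.6 ± 2.05%. Treated libraries ran from 21.7 to 28.4% and untreated ones from 16.2 to 22.6%, so the ranges overlapped at their ends. Cep295nl, which overlaps Timp2 on the same strand, had 99 reads in all against 124323 for Timp2.

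Mmp14, the membrane-bound activator of MMP2, had 126, 112 and 135 CPM in mock and 149, 157 and 141 CPM in mock with TGFβ. In labelled Nnmt-OE cells it had 136, 146 and 119 CPM without and 159, 147 and 138 CPM with TGFβ. The treated and untreated mock libraries did not overlap, and those of labelled Nnmt-OE did. Its difference was 0.26 ± 0.110 (log2 ± SE, edgeR adjusted p = 0.32) in mock cells, 0.15 ± 0.110 (0.68) in labelled Nnmt-OE cells and 0.20 ± 0.0779 (0.139) averaged. None passed the test, and the averaged 95% interval was 1.03- to 1.28-fold before adjustment over genes.

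Mmp2, or gelatinase A, cuts denatured collagen and basement membrane collagen. It had 111, 107 and 110 CPM in mock, 108, 108 and 133 CPM in mock with TGFβ, 105, 124 and 114 CPM in labelled Nnmt-OE, and 137, 95.7 and 118 CPM in labelled Nnmt-OE with TGFβ. No group was set off from another. The averaged difference was 0.06 ± 0.0872 (log2 ± SE, edgeR adjusted p = 0.812), and its 95% interval ran from 0.921- to 1.18-fold. For each Mmp2 tag there were 1.14 ± 0.0890 Mmp14 tags in mock, 1.30 ± 0.209 in mock with TGFβ, 1.17 ± 0.127 in labelled Nnmt-OE and 1.29 ± 0.213 in labelled Nnmt-OE with TGFβ (SD, n = 3).

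Mmp9, or gelatinase B, had few reads, with 21, 0 and 1 in mock, 21, 18 and 12 in mock with TGFβ, 24, 9 and 8 in labelled Nnmt-OE, and 31, 12 and 4 in labelled Nnmt-OE with TGFβ. Mock replicate 1 had nearly all of the reads of its group, and replicate 1 was also the highest library of the other groups. The averaged TGFβ difference was 0.57 ± 0.646 (log2 ± SE, edgeR adjusted p = 0.738), with a 95% interval of 0.598- to 3.67-fold, and it was not called. In mock cells the difference was 0.93 and became 4.51 without mock replicate 1 (edgeR adjusted p = 0.135), when 1 read was left in the untreated group, so the size then depends on the prior count. Without the 3 libraries that stood apart the averaged difference was 2.62 and was called (edgeR adjusted p = 0.0449), whereas leaving out other single libraries lowered it to as little as 0.14. Of the macrophage and neutrophil markers, the summed level was 55.2 to 81.2 CPM in mock and 73.2 to 96.3 CPM in the other 3 groups, mostly from Csf1r, and its part in the Mmp9 values was not tested.

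Mmp19, a secreted enzyme of broad substrate range, had 1.42, 4.45 and 4.58 CPM in mock, 4.48, 2.62 and 2.83 CPM in mock with TGFβ, 6.79, 2.49 and 0.914 CPM in labelled Nnmt-OE, and 1.65, 1.56 and 3.34 CPM in labelled Nnmt-OE with TGFβ. Both the highest and the lowest of the 12 libraries belonged to labelled Nnmt-OE. The averaged TGFβ difference was -0.36 ± 0.507 (log2 ± SE, edgeR adjusted p = 0.799), with a 95% interval of 0.384- to 1.59-fold, and a difference was not detectable in these libraries. Tmem198b overlaps Mmp19 on the opposite strand and had 683 reads against 219 for Mmp19. The strand setting is not given, so how reads in the part shared by this pair were counted is not known.

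**Figure D3:**
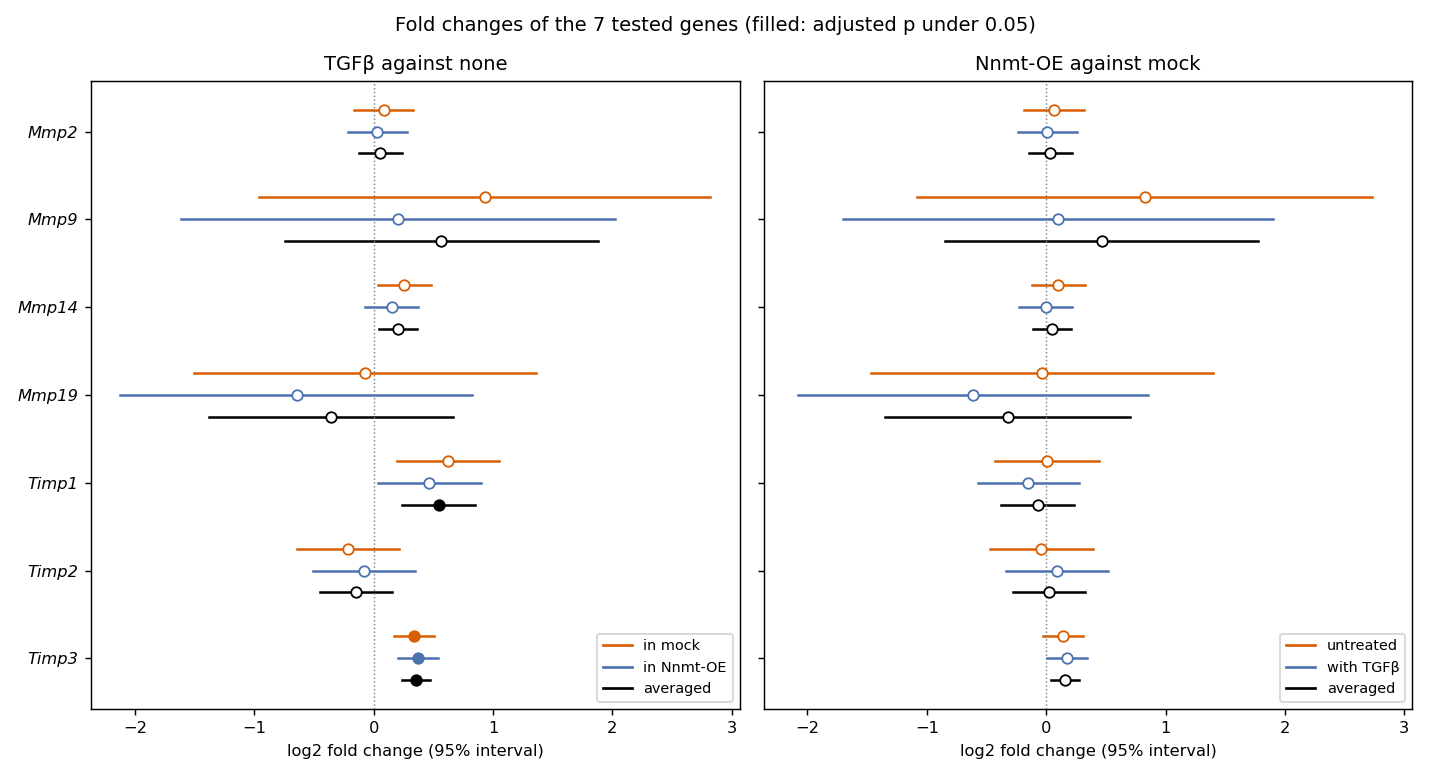
Log2 fold changes (x axis) with 95% intervals of the 7 tested genes, for TGFβ against none (left) and labelled Nnmt-OE against mock (right), with filled points where the edgeR adjusted p is under 0.05. Filled points are Timp3 in all 3 TGFβ contrasts and Timp1 in the averaged one, and there are none on the right.

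A further comparison set labelled Nnmt-OE cells against mock cells, and here 0 of the 7 tested genes were called, without TGFβ, with it, or averaged over both. The share of all genes called was also small, at 0.0388, 0.0233 and 0.0698%. The median log2 difference of the 7 genes was 0.06, 0.01 and 0.04 in these contrasts. At an unadjusted p under 0.05, the counts were 0, 1 and 1 of 7, beside 5.84, 4.46 and 6.23% of all genes, and that gene was Timp3 each time. DESeq2 and limma-voom called 0 of these genes as well.

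Timp3 was the nearest to a construct difference. With TGFβ, the labelled Nnmt-OE libraries (592, 601 and 661 CPM) were all above the mock libraries (578, 523 and 546 CPM), a separation seen in 10.2% of tested genes in either direction. The difference was 0.17 ± 0.0830 (log2 ± SE, edgeR adjusted p = 0.998), while without TGFβ it was 0.14 ± 0.0835 (0.874) and the libraries overlapped. Averaged, Timp3 was 1.11-fold in labelled Nnmt-OE relative to mock (95% interval 1.03 to 1.21 before adjustment, edgeR adjusted p = 0.69). For the more abundant of the other members the averaged intervals were 0.823- to 1.26-fold for Timp2, 0.771- to 1.17-fold for Timp1, 0.927- to 1.15-fold for Mmp14 and 0.907- to 1.16-fold for Mmp2. Those of Mmp9 (0.557 to 3.42) and Mmp19 (0.393 to 1.62) were far wider.

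Whether the TGFβ difference itself varied with the construct was tested as an interaction. It was called for 0 of the 7 genes and for 0% of all genes by edgeR, and at an unadjusted p under 0.05 for 0 of the 7 and 3.88% of all genes. DESeq2 and limma-voom also called 0 genes. For Timp3 the interaction was 0.03 ± 0.118 (log2 ± SE, edgeR adjusted p = 0.999), with a 95% interval from 0.865- to 1.2-fold. For Timp1 it was -0.15 ± 0.300 (0.999), with an interval from 0.590- to 1.37-fold.

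Other genes of the system were taken from lists of the remaining family members, related proteases, activators and inhibitors, matrix proteins and transcription factors. These lists were also chosen with earlier results of these data known, so the shares called in them are a description. Of 17 other metalloproteinase and TIMP genes, 8 were at 0 in all libraries, Timp4 among them, and 2 were tested. With TGFβ 0 of these 2 were called by edgeR, DESeq2 or limma-voom, and 0 had an unadjusted p under 0.05, beside 16.6% of all genes. The 2 tested were the membrane-bound Mmp15 (-0.22 ± 0.224 log2 ± SE) and Mmp11 (0.10 ± 0.202), at 14.7 ± 1.23 and 14.4 ± 0.985 CPM in mock. Of 13 tested ADAM and ADAMTS genes, 1 rose and 0 fell in the averaged TGFβ contrast, a share of 7.69% that is near the 5.08% of all genes. This was Adamts4, an aggrecanase that TIMP3 can block, with 10.0 ± 2.74 CPM in mock, 21.7 ± 6.35 in mock with TGFβ, 16.9 ± 2.98 in labelled Nnmt-OE and 24.1 ± 4.90 in labelled Nnmt-OE with TGFβ (averaged 1.75-fold, edgeR adjusted p = 0.00519). A further gene of this list was called without mock replicate 3. The median log2 difference of the 13 was 0.06, beside -0.0046 over all genes, and Adamts6 at 1.496 ± 0.548 was not called (edgeR adjusted p = 0.117).

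Among 17 tested activators, inhibitors and receptors of these proteases, 4 rose and 1 fell with TGFβ, or 29.4% called against 5.08% of all genes, with a median log2 difference of -0.04. Without mock with TGFβ replicate 1 the calls went from 5 to 3. Plat, tissue plasminogen activator, fell by 0.65 on the log2 scale (edgeR adjusted p = 0.000256), from 68.4 ± 10.9 to 44.8 ± 10.7 CPM in mock cells and from 73.2 ± 7.65 to 45.5 ± 7.82 CPM in labelled Nnmt-OE cells. Plaur, the receptor of urokinase, rose 1.63-fold (edgeR adjusted p = 0.0204), with group means of 11.6 ± 5.28 CPM in mock and, for labelled Nnmt-OE, 17.2 ± 1.64 CPM, which became 19.97 ± 3.77 and 26.4 ± 2.00 CPM. Its call was lost without mock replicate 1 (0.0664), without mock with TGFβ replicate 1 (0.0769) and without the 3 libraries that stood apart (0.0858). Thbs1, thrombospondin-1, rose 1.31-fold (edgeR adjusted p = 2.8e-05) and Cd44, a cell surface receptor that can dock metalloproteinases, rose 1.21-fold (0.00464). In the averaged construct contrast 0 of the 17 were called by edgeR, DESeq2 or limma-voom. At an unadjusted p under 0.05 there were 4 of the 17, beside 6.23% of all genes. Thbs1 had the smallest p there, at 1.15-fold (edgeR adjusted p = 0.395).

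Matrix proteins moved in both directions. Of 23 tested, 6 rose and 3 fell with TGFβ, or 39.1% called against 5.08% of all genes. Their median was -0.06, and without labelled Nnmt-OE replicate 1 the calls went from 9 to 5. Col5a1, a chain of type V collagen, rose 1.32-fold (edgeR adjusted p = 0.00693), with group means of 58.0 ± 3.26 CPM in mock and, for labelled Nnmt-OE, 60.1 ± 3.11 CPM, which became 76.6 ± 7.38 and 79.6 ± 8.68 CPM. Fn1, fibronectin, rose 1.19-fold (0.00693). The largest rises among the called genes were those of Col1a2 (8.55-fold, edgeR adjusted p = 0.0284), Lamb3 (6.72-fold, 0.0171) and Col1a1 (2.54-fold, 0.0124). These genes had few reads, with 103, 152 and 467 over all libraries. Untreated means were 0.729 CPM in mock and 0.0489 in labelled Nnmt-OE for Col1a2, and 0.658 and 0.342 CPM for Lamb3. Such levels lie near or below the lower limit of detection. The SE of their log2 rises was 0.885 and 0.729, so the sizes are uncertain. DESeq2, limma-voom and the fit with the replicate block each called 8 genes of this list. Col18a1, whose product is part of basement membranes, fell by 0.32 on the log2 scale (edgeR adjusted p = 0.00278), and Spp1, osteopontin, fell by 0.26 (0.00469). In the averaged construct contrast 0 of the 23 were called by edgeR, DESeq2 or limma-voom. At an unadjusted p under 0.05 there were 2 of the 23, or 8.7%, near the 6.23% of all genes. Col1a2 had the smallest p for the construct (log2 difference -2.31 ± 0.896, edgeR adjusted p = 0.69), at 0.729 ± 0.925 CPM in mock cells, while labelled Nnmt-OE cells had 0.0489 ± 0.0847 CPM. With TGFβ its levels were 3.19 ± 2.56 CPM in mock cells and 1.31 ± 0.258 CPM in labelled Nnmt-OE cells.

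AP-1, ETS, RUNX and related factors can act on metalloproteinase promoters, and 0 of 23 tested were called with TGFβ by edgeR or limma-voom. DESeq2 called 2, and edgeR called 1, Junb, without mock replicate 3 (edgeR adjusted p = 0.0373). At an unadjusted p under 0.05 there were 5 of the 23, beside 16.6% of all genes. The nearest was Junb, an AP-1 subunit, at 0.26 ± 0.0871 (log2 ± SE, edgeR adjusted p = 0.0712), followed by Nfkb1 at 0.21 ± 0.0710 (0.0875). For the construct, 2 of 23 rose in the averaged contrast, both AP-1 subunits, against 0.0698% of all genes called. Junb had 72.1 ± 8.14 CPM in mock cells against 98.5 ± 7.45 CPM for labelled Nnmt-OE, and 87.7 ± 3.75 and 117 ± 11.6 CPM with TGFβ (1.35-fold averaged, edgeR adjusted p = 0.028). Jun had 137.5 ± 10.2 and 173.5 ± 4.86 CPM, and 120 ± 9.20 and 162 ± 30.7 CPM with TGFβ (1.30-fold averaged, edgeR adjusted p = 0.0424). Each of these calls was lost in 9 of the 12 fits that left out 1 library, with a highest edgeR adjusted p of 0.163 for Junb and 0.289 for Jun. The call for Junb stayed without mock replicate 3, labelled Nnmt-OE replicate 2 or labelled Nnmt-OE with TGFβ replicate 1, and that for Jun without mock replicate 2 or labelled Nnmt-OE with TGFβ replicate 1 or 2. Both were lost without the 3 libraries that stood apart (0.234 and 0.341), and that for Jun also by limma-voom (0.0611) and with the replicate block (0.0565).

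**Figure D4:**
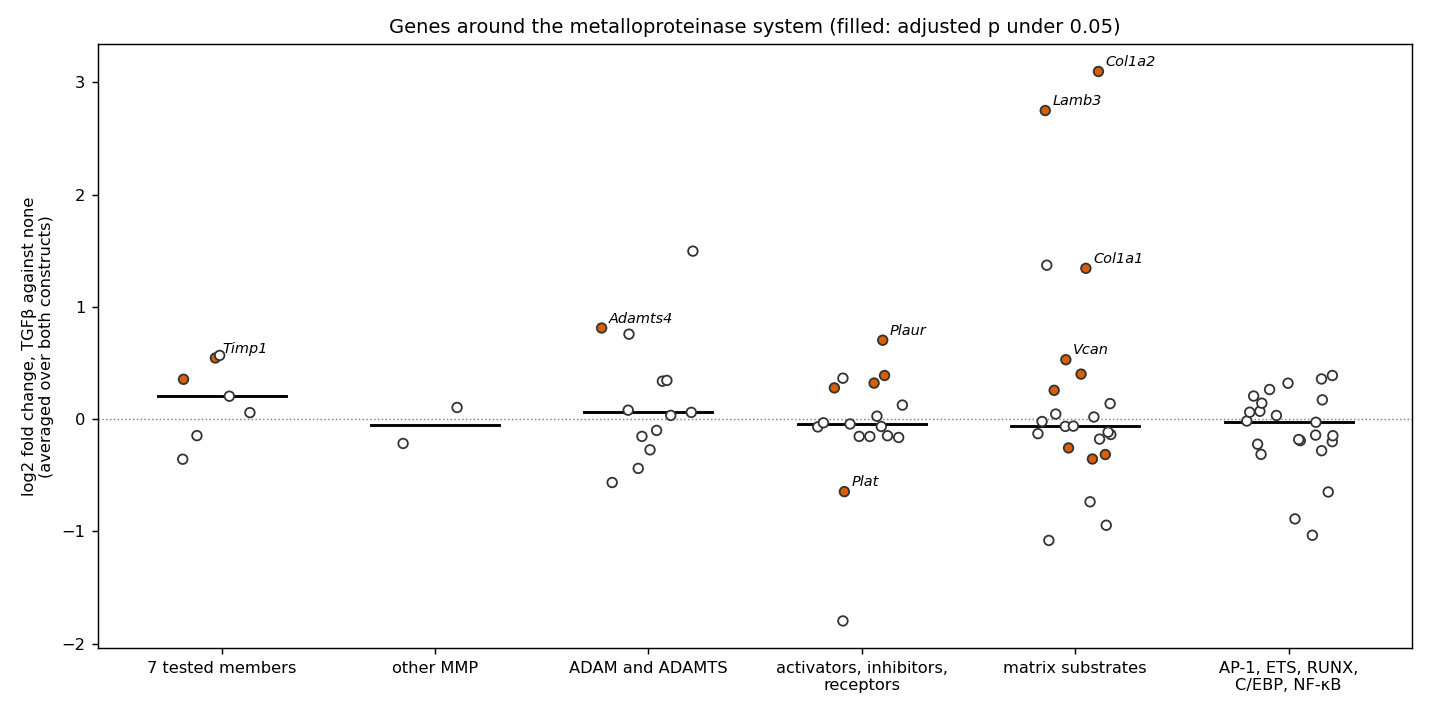
Log2 difference with TGFβ averaged over both constructs (y axis) for the tested genes of 6 lists, 1 point per gene, with the list median as a bar and filled points where the edgeR adjusted p is under 0.05. Called genes that moved by more than 0.5 are labelled, Plat lies at -0.65, and the medians of all 6 lists lie between -0.06 and 0.20.

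The genes whose levels followed those of Timp3 most closely over the 12 libraries, among 9124 genes with at least 10 CPM, were Ctps, a CTP synthase (Pearson r = 0.955 on log2 CPM), Tpm1, a tropomyosin (0.955), and Cpox, an enzyme of haem synthesis (0.947). Tpm1 went from 1547 to 1947 CPM in mock cells and from 1628 to 2196 CPM in labelled Nnmt-OE cells. For Timp1 they were Rlim, an E3 ubiquitin ligase (0.898), Ndc1, a nuclear pore protein (0.898), and Ola1, an ATPase (0.895). The points share libraries and the TGFβ difference, and these are the highest of 9124 values, so they are a description only.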

How the data were processed

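Levels were measured by 3' tag sequencing (QuantSeq forward) of 100 ng RNA from 12 libraries in 4 groups of 3, grouped by their titles. The authors deposited raw counts per gene, as 1 table made with STAR and HTSeq per the submitters' processing notes, with versions not given. Those notes name GRCh38 although the identifiers are mouse Ensembl ones, and the sources used here give neither the mouse build nor the annotation release nor the strand setting. Rows for reads in no gene (26.4 to 28.79% outside genes) were left out of library sizes. Symbols matched 99.4% of identifiers.

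All 12 libraries entered 1 fit with a mean per group in edgeR 4.0.16 (R 4.3.3), after filterByExpr (minimum count 10, minimum total 15) kept 12897 genes. After TMM scaling (factors 0.9815 to 1.011), 7 contrasts were tested by the robust quasi-likelihood method at 0.05, with p-values adjusted by Benjamini and Hochberg's method across the genes tested. Comparisons that share a group are not independent. Promoter windows came from RefSeq, GRCm38.p6. Alternatives were DESeq2 1.42.0, limma-voom (limma 3.58.1), RLE scaling, unscaled library totals, no filter, a stricter filter (1 CPM in 3 libraries and 50 reads in total), the replicate block, only the groups compared, and each library left out. The fit without the 3 libraries that stood apart was chosen after seeing the data. The scripts were also run on simulated data with planted changes in every contrast but the interaction. The outcome is not reported here, and the planted changes were all larger than the averaged rise of Timp3.

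The genes and lists were chosen with earlier results of these data known. Named are all 10 genes, up to 4 called genes per list with the smallest adjusted p, or up to 2 by p where fewer than 2 were called, and the 3 genes most like Timp3 and Timp1. Col1a1, Col1a2 and Lamb3 are also named for TGFβ because their rises were the largest called in their list. A gene of 1 list is not reported here. Counts of reads without molecular identifiers are not independent molecules, and limits of detection cover counting error only.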

Additional observations from a re-analysis of the deposited data

How the results depend on the processing

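Over all contrasts, 1001 alternative values were computed for single members. Of these 926 had the direction and side of the threshold reported, 61 had the opposite sign, 13 lost and 1 gained the call. None of the 61 belonged to a called difference. RLE scaling, library totals and both filters gave 0 changes of sign or call among members, and the median of all genes lay within 0.0272 of 0 under these scalings. Mmp3, Mmp10 and Mmp13 had too few reads to be tested at this depth, and Mmp9 and Mmp19, with 161 and 219 reads in all, had the widest intervals of the 7 genes tested.

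The number of genes called with TGFβ in mock cells was 184 and became 306 by DESeq2 and 92 in a fit of these groups alone, where 0 members were called. In labelled Nnmt-OE cells it was 180 and became 295 and 351. For the construct without TGFβ it was 5 and became 13 with no filter and 3 when only its groups were fitted, and for the averaged construct contrast it was 9 and became 26 by DESeq2 and 19 with no filter. The cause was not tested.

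With each library left out in turn, the genes called ranged from 98 to 188 for TGFβ in mock, 97 to 305 for TGFβ in labelled Nnmt-OE, 3 to 6 and 1 to 3 for the construct without and with TGFβ, and 5 to 9 for the averaged construct contrast. Members called ranged from 0 to 1, 0 to 1 and 1 to 2 for TGFβ in mock, in labelled Nnmt-OE and averaged.

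Signs of uncalled log2 differences turned when single libraries were left out. For TGFβ in mock the ranges were -0.0162 to 0.139 for Mmp2, -0.441 to 0.189 for Mmp19 and -0.356 to 0.00741 for Timp2. For TGFβ in labelled Nnmt-OE they were -0.0998 to 0.156 for Mmp2, -0.663 to 0.952 for Mmp9, -1.09 to 0.322 for Mmp19 and -0.177 to 0.0104 for Timp2. Averaged over constructs, they were -0.00696 to 0.121 for Mmp2 and -0.578 to 0.127 for Mmp19. For the construct without TGFβ they were -0.00507 to 0.119 for Mmp2, -1 to 0.406 for Mmp19, -0.14 to 0.234 for Timp1 and -0.187 to 0.172 for Timp2. With TGFβ they were -0.126 to 0.132 for Mmp2, -0.768 to 0.514 for Mmp9 and -0.0613 to 0.0424 for Mmp14. The averaged construct contrast gave -0.0334 to 0.0975 for Mmp2, -0.146 to 0.0419 for Timp1 and -0.0489 to 0.129 for Timp2. The interaction gave -0.186 to 0.07 for Mmp2, -4.3 to 0.0157 for Mmp9, -1.02 to 0.39 for Mmp19, -0.0858 to 0.275 for Timp2 and -0.0366 to 0.0667 for Timp3.

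Without the 3 libraries that stood apart, the sign turned for Mmp2 with TGFβ in mock (-0.00823), for Timp1 (-0.137) and Timp2 (0.174) for the construct without TGFβ, for Mmp14 (0.0017) and Timp1 (0.0403) with TGFβ, and in the interaction for Mmp2 (0.0371), Timp1 (0.177), Timp2 (-0.0338) and Timp3 (-0.091). By limma-voom it turned for Mmp19 with TGFβ in mock (0.0772) and for Mmp9 in the construct contrast with TGFβ (-0.153).

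No pairing by replicate number was seen over the tested genes, and 3 libraries per group are too few to settle whether the numbers pair the samples. Correlations of 18 same-number pairs of libraries from different groups ran from -0.102 to 0.0467, and 4 of 12 libraries were closest to their own number. With the replicate block no call of a member changed, 1 of the 2 AP-1 calls for the construct was lost (Jun), and the sign turned for Mmp9 in the construct contrast with TGFβ (-0.3).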
